A study of Homo sapiens with 6 samples.

Results

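CD55 and 7 other genes of the complement system were followed in the prostate cancer cell line LNCaP after knockdown of the methyl-CpG binding protein MBD2. The genes are CD55, CD46 and CD59, which encode regulators on the cell surface, CFI, CFHR2, SERPING1 and CLU, which encode regulators in plasma, and C3, the central component. Each was taken from the array feature that carries its symbol alone, which found 8 of 8 genes among the 16704 measured, with 1 feature per gene, so the rule's choice by highest mean over all arrays was not needed. The set was selected on the knockdown values of CD55, which were above the control values in an earlier analysis of these same arrays, so all differences between knockdown and control given here are descriptions, and none is independent support for another.

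The study measured cytoplasmic RNA of each clone on 1 Affymetrix human Gene ST array. LNCaP is an androgen-responsive line from a metastasis of prostate cancer. The 3 control clones carry a scrambled short hairpin RNA and the 3 knockdown clones a short hairpin RNA against MBD2, both in the siLentGene-2 vector. All 6 clones came through neomycin selection of stable transfectants, and precision is limited by there being 6 arrays. Each clone is a single line, so differences between clones of 1 group include differences between individual founder cells. Values are log2 expression values, on which a difference of 1 is a doubling. In bulk RNA a change in the share of cells that express a gene and a change in the RNA per cell cannot be told apart.

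Complement is a cascade of plasma proteins that marks surfaces for removal and can end in a pore, the membrane attack complex. Its branches meet at the C3 convertases, which cleave C3 so that C3b is deposited on nearby surfaces. Human cells protect themselves with a small set of regulators. CD55, also called decay-accelerating factor, takes convertases apart. CD46 is a cofactor with which the protease factor I, the product of CFI, cuts C3b, and CD59 blocks the final assembly of the pore. CD55 and CD59 are held in the membrane by a glycosylphosphatidylinositol (GPI) anchor, while CD46 spans it. MBD2 recognises methylated CpGs in DNA and brings the repressive NuRD complex to them, so the number of CpGs near a gene's start is part of the setting in which the protein can act.

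The stretches of 250 bases before the start of CD55, CD46 and CFI are shown because CD55 and CFI were the genes of this set whose knockdown and control values did not overlap, in opposite directions, and CD46 is the other surface regulator on the same chromosome as CD55. Groups did not overlap in 15.4% of all genes, and CFI was among the dimmest 3.1% on every array. A link between CpG content and the direction of a difference was not tested. They are RefSeq promoter windows of build GRCh38.p14 and run 5′ to 3′ on the gene's strand, with CpG dinucleotides in capitals. CD55 lies at chr1:207321428-207321677 on the plus strand, CD46 (the first of 2 starts) at chr1:207751788-207752037 on the plus strand and CFI at chr4:109802000-109802249 on the minus strand.
CD55: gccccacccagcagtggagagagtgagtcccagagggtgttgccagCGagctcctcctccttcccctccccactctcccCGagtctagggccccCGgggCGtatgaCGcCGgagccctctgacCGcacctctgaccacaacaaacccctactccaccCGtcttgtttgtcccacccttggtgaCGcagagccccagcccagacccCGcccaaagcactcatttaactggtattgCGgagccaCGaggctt
CD46: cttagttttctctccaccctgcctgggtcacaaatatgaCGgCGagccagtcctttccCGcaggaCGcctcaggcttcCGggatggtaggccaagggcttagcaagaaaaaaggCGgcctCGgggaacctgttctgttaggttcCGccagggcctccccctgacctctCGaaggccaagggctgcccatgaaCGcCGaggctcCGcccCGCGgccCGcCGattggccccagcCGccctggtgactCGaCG
CFI: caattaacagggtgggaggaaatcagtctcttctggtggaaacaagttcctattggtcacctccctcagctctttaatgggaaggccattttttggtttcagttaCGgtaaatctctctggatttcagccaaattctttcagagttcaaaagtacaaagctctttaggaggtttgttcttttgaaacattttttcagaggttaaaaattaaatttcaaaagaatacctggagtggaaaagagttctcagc

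The CD55 window holds 12 CpGs, 5 of them in the 100 bases next to the start and 7 in the 150 bases before those. The ratio of observed to expected CpGs, given its content of C and G, is 0.50. Across all 35116 windows of the table the median is 11 CpGs and the median ratio 0.56, and 48.5% of windows hold at least as many CpGs as CD55. The CD46 window has 19 CpGs and a ratio of 0.73, with 11 of the CpGs in the 100 bases next to the start, and the window of its other start, which overlaps the first, has 21. CFI stands at the other end with 1 CpG, which 93.9% of windows reach or exceed. CD59 has 4 listed starts, of which the 2 farthest upstream have 12 and 18 CpGs and the other 2 have 1 each. A GC box, searched as GGGCGG and its complement CCGCCC on either strand and itself containing a CpG, occurs once in the CD55 window, and 42.6% of all windows hold at least 1. The letters TATAAA were found on neither strand in any of the 8 windows of these 4 genes, against 10.7% of all windows. Windows for CFHR2, SERPING1, CLU and C3 were not used here. The methylation state of these CpGs was not measured in these data.

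**Figure D1:**
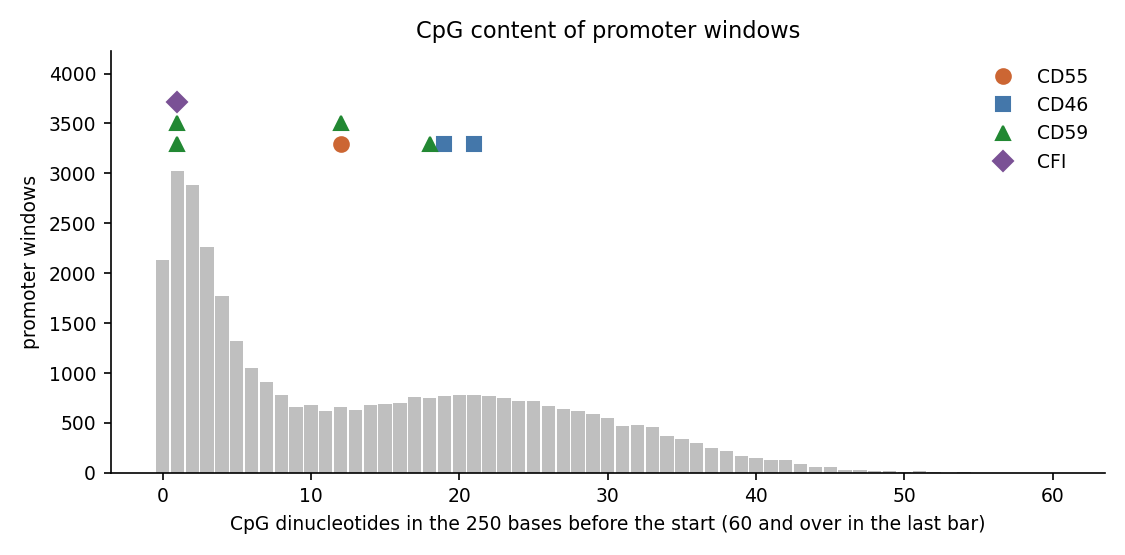
The bars give the number of promoter windows (y axis) by the number of CpG dinucleotides in the 250 bases before the start (x axis) for all 35116 windows, and each symbol above them is 1 start of CD55, CD46, CD59 or CFI, stacked where counts coincide. CD55 at 12 lies near the median of 11, CD46 at 19 and 21 to its right, and CFI at 1 far to its left, where 2 of the 4 CD59 starts also lie. The bars are tallest at 1 CpG (3020 windows), stand at 620 at 11 CpGs and rise again to 779 at 20. The median thus lies in a dip and is not the most common count.

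MBD2, the targeted gene, had log2 values of 8.73, 9.24 and 9.20 in control clones 1, 2 and 3 and of 7.68, 7.84 and 7.81 in knockdown clones 1, 2 and 3. All 3 knockdown clones lay below all 3 controls, as the labels imply. The difference was -1.28 with a standard error (SE) of 0.14.

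CD55 was higher in every MBD2 knockdown clone than in every control, as were 6.57% of all genes. Its log2 value was 7.67, 7.79 and 7.60 in control clones 1, 2 and 3 and 8.78, 8.41 and 8.47 in knockdown clones 1, 2 and 3. The lowest knockdown clone stood 0.62 above the highest control, which is more than the range within the controls (0.19) or within the knockdown clones (0.37). The mean was 7.69 ± 0.10 for the controls and 8.55 ± 0.20 for the knockdown group (SD, n = 3 each), a difference of 0.86 with an SE of 0.12, or 1.82-fold. Measured from the control mean, knockdown clone 1 was higher by 1.09, clone 2 by 0.72 and clone 3 by 0.78. The highest CD55 value was that of knockdown clone 1, the clone with the lowest MBD2 value. That clone also had the highest value for 31.1% of all genes. Among the controls, clone 2 had the highest value of both CD55 and MBD2. For CD55, knockdown clones 2 and 3 lay closer to each other than to knockdown clone 1.

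By size of the difference, CD55 ranked 56 from the top among the 16704 genes. It did not pass the threshold of an adjusted p under 0.05 in limma's fit of all genes (Benjamini-Hochberg adjusted p = 0.143), which 0.0% of genes passed. Without knockdown clone 1 the difference was 0.75 and CD55 passed (adjusted p = 0.0498), as did 0.419% of all genes. With arrays weighted by quality the difference was 0.74 and CD55 also passed (adjusted p = 0.0171), as did 1.95% of all genes. The weights were 0.252, 3.43 and 0.976 for knockdown clones 1, 2 and 3, so the weighted knockdown mean rested mostly on clone 2. CD55 did not pass with any other single array left out (adjusted p from 0.270 to 0.458 in limma's fit). Nor did it pass with a replicate block (adjusted p = 0.319).

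**Figure D2:**
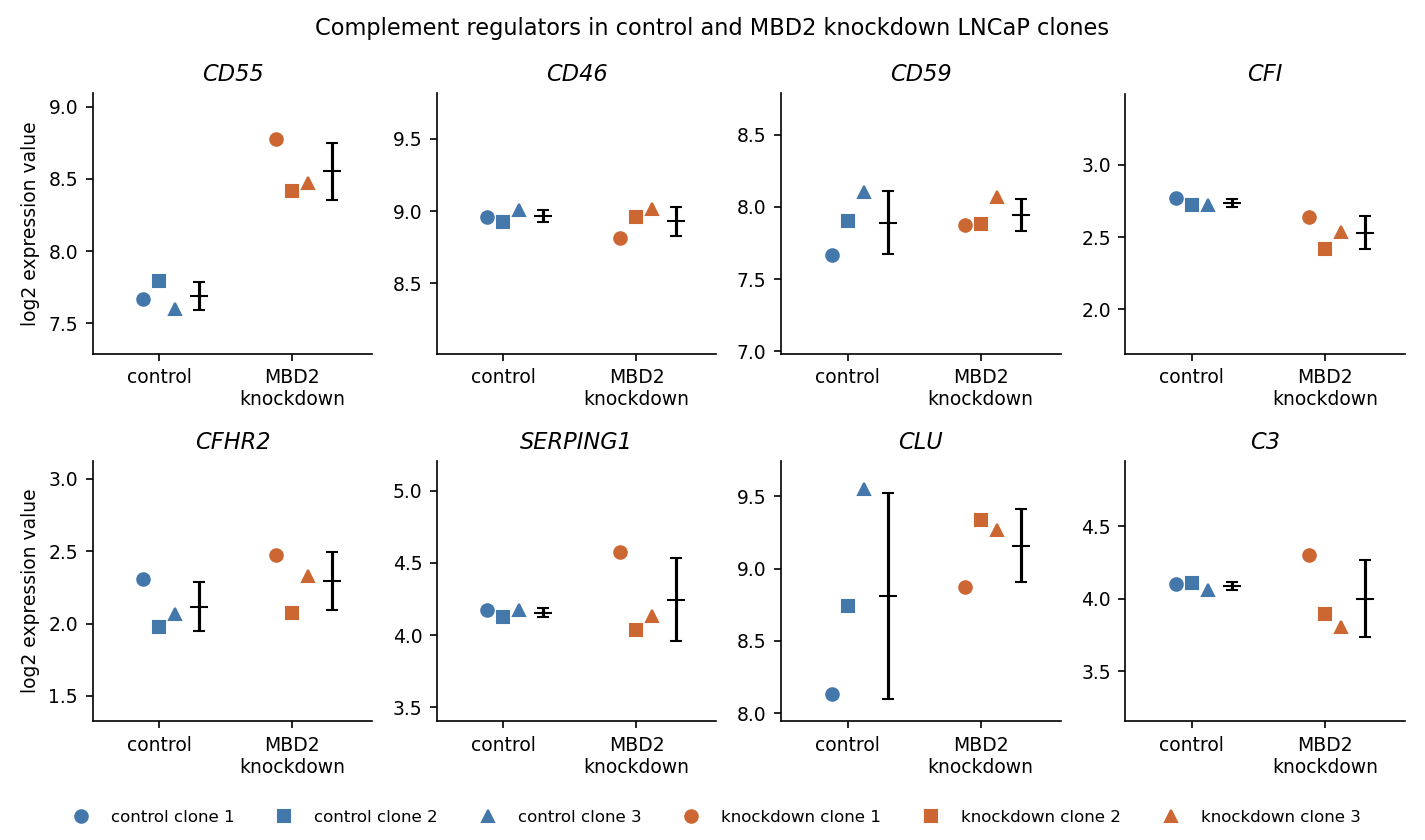
Each panel shows 1 gene, with the log2 expression value (y axis, the same span of 1.8 in every panel) in the 3 control clones and the 3 MBD2 knockdown clones as symbols, and the mean ± SD beside them. CD55 shows separate groups, from 7.60 to 7.79 in the controls and from 8.41 to 8.78 in the knockdown clones, while CLU differs most within the controls, from 8.13 to 9.55.

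In the other 2 surface regulators the groups overlapped. CD46, the cofactor for cleavage of C3b, had log2 values of 8.96, 8.93 and 9.01 in control clones 1, 2 and 3 and of 8.82, 8.96 and 9.01 in the knockdown clones in the same order. Knockdown clone 1, the highest for CD55, was the lowest for CD46. The difference was -0.04 with a 95% interval from -0.23 to 0.16, and it turned to 0.01 with repeated quantile normalization and to 0.02 with cyclic loess.

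CD59, the inhibitor of the membrane attack complex, had values of 7.67, 7.90 and 8.10 in control clones 1, 2 and 3 and of 7.88, 7.88 and 8.07 in the knockdown clones. All 3 knockdown values fell inside the range of the controls. The difference was 0.05, with a 95% interval from -0.24 to 0.34. It was -0.06 without control clone 1, -0.01 without knockdown clone 3 and 0.16 without control clone 3. The intervals of CD46 and CD59 allow a change in either direction that is smaller than the difference seen for CD55, and neither interval shows that the gene did not change.

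Among the plasma regulators, CFI was the 1 whose groups did not overlap. The same was so for 15.4% of all genes, 8.87% on the lower side. It encodes factor I, the serine protease that cuts C3b and C4b when a cofactor such as CD46 is present. Its log2 values were 2.77, 2.72 and 2.72 in control clones 1, 2 and 3 and 2.64, 2.42 and 2.53 in knockdown clones 1, 2 and 3. Every knockdown clone lay below every control, by at least 0.08. The difference was -0.20 with an SE of 0.08 (adjusted p = 0.518 in limma's fit of all genes). The feature was among the dimmest 3.1% of genes on every array, where no value here tells expression from background.

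CFHR2, a plasma protein related to factor H, was dimmer still, within the lowest 1.0% of every array. Its values were 2.31, 1.98 and 2.07 in the controls and 2.47, 2.08 and 2.33 in the knockdown clones, and the groups overlapped. The difference was 0.18, with a 95% interval from -0.13 to 0.48. CFHR2 belongs to a family of near-identical neighbours, so which of them the feature measures is uncertain.

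SERPING1 encodes the C1 inhibitor, which inactivates the proteases that start the classical pathway. Its values were 4.17, 4.12 and 4.17 in the controls, within 0.05 of each other, and 4.57, 4.04 and 4.13 in knockdown clones 1, 2 and 3. Knockdown clone 1 lay above all controls, and clone 2 lay below them. The difference was 0.09 with all clones and -0.07 without knockdown clone 1.

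CLU encodes clusterin, a secreted chaperone that also binds the forming membrane attack complex. Its log2 values were 8.13, 8.74 and 9.55 in control clones 1, 2 and 3 and 8.87, 9.34 and 9.27 in knockdown clones 1, 2 and 3. The controls alone spanned 1.42, a range that 0.437% of all genes exceeded, and the knockdown clones fell inside it. The difference of 0.35 had an SE of 0.33 and a 95% interval from -0.41 to 1.11. It was 0.01 without control clone 1, the lowest of the 6, and 0.72 without control clone 3, the highest.

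C3 is the protein on which all branches converge and which CD55, CD46 and factor I act upon in its cleaved form. Its values were 4.10, 4.11 and 4.06 in the controls and 4.30, 3.89 and 3.80 in knockdown clones 1, 2 and 3. Knockdown clone 1 lay above the controls and clones 2 and 3 below them. The difference was -0.09 with all clones, -0.24 without knockdown clone 1 and 0.01 without knockdown clone 3.

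CFI, CFHR2, SERPING1 and C3 lay under the lower quartile of every array. In 3 of these 4, all but CFI, knockdown clone 1 had the highest value. The same was so for 44.3% of the 3636 genes that lay under the lower quartile of every array, and for 31.1% of all genes. The array of knockdown clone 1 also had the narrowest spread over genes, with an SD of 2.00 against 2.05 to 2.07 on the others. The part of this in the values of these genes was not tested. CD55, CD46, CD59 and CLU lay above the lower quartile on all 6 arrays.

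**Figure D3:**
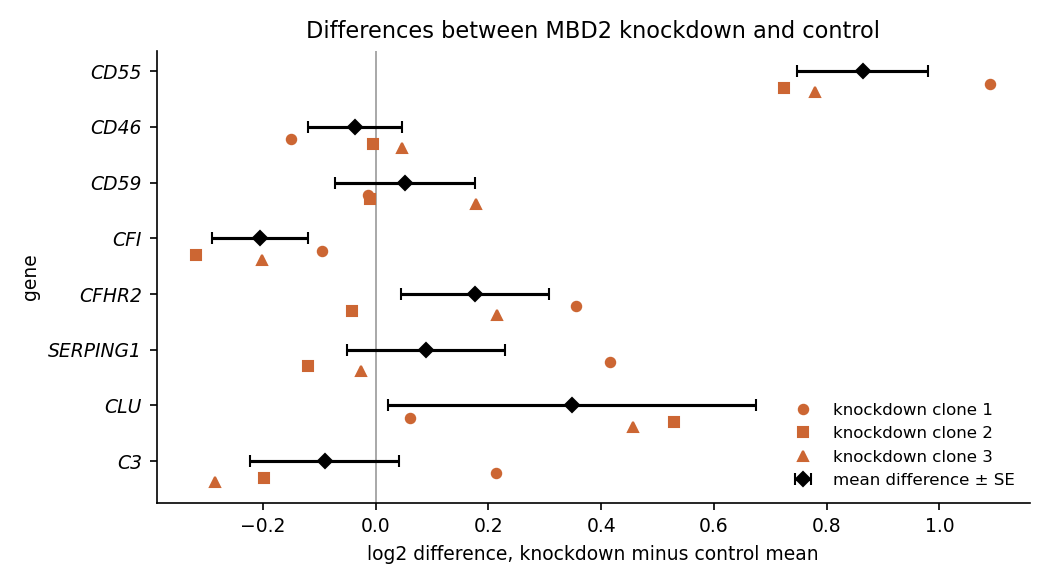
For each of the 8 genes (y axis) the diamond gives the log2 difference between the knockdown and control means with its SE as a bar, and the symbols below it give each knockdown clone minus the control mean (x axis, log2). CD55 is at 0.86 with all 3 clones between 0.72 and 1.09, and SERPING1 and C3 have knockdown clone 1 on the other side of 0 from clones 2 and 3.

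Across the set, 5 of 8 genes had a higher mean in the knockdown clones and 3 a lower one, with a median difference of 0.07 against -0.0043 over all genes. None of the 8 passed the threshold, and their adjusted p lay between 0.143 and 0.934. At an unadjusted p under 0.05 in limma's fit there were 2, CD55 and CFI, where 9.39% of all genes had one. The groups did not overlap in 2 of 8, CD55 on the higher side and CFI on the lower, against 15.4% of all genes (6.57% higher and 8.87% lower). The median was -0.01 without control clone 1, so its sign rested on 1 library.

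The rest of the complement system was followed in 4 lists of 48 measured genes, and none passed the threshold. A mean higher in the knockdown clones was found for 32 and a lower one for 16, with a median of 0.05, where 48.7% of all genes had a higher mean. Without knockdown clone 1 the median of each of the 4 lists was below 0, between -0.04 and -0.03, against -0.02 over all genes. The groups did not overlap in 3 of the 48, against 15.4% of all genes, and 23 lay under the lower quartile of every array. In limma's fit 1 of the 48, C4BPB, had an unadjusted p under 0.05, against 9.39% of all genes.

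Of 15 measured genes that start the classical and lectin pathways, 10 had higher and 5 lower means, with a median of 0.04, which was -0.01 with array weights. C1S, a protease of the C1 complex, had 0.24, C1QB 0.10 and MASP1 0.07. C1RL, a C1r-like protease, had -0.38, with 6.80, 7.21 and 7.40 in the controls and 6.95, 6.61 and 6.70 in the knockdown clones. Control clone 1 lay below knockdown clone 1, so its groups overlapped. COLEC10 had -0.09 and C1QC -0.08.

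The alternative and terminal pathway had 7 of 10 genes with higher means and a median of 0.05, which was -0.01 with array weights. C5, from which the pore assembly begins, had 0.17, C6 0.08 and C8G 0.08. C8A had -0.08, CFB, the factor B gene, -0.10 and C7 -0.06. The groups overlapped in all 10, where 15.4% of all genes had groups that did not overlap.

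Of 11 receptors 8 had higher means, with a median of 0.04, which was -0.11 with array weights, -0.04 without knockdown clone 1 and -0.0015 with repeated quantile normalization. ITGB2, the beta chain of the C3 fragment receptors of leukocytes, had 0.18. Its groups did not overlap, which held for 1 of the 11 receptors, against 15.4% of all genes. CD93 had 0.22 and CR2, the receptor for C3d, 0.53, while C1QBP had -0.07, ITGAX -0.02 and ITGAM -0.0049. ADGRE5, a binding partner of CD55 named here after its values were seen, had 7.44, 7.58 and 7.58 in the controls and 7.75, 7.56 and 7.48 in the knockdown clones. Its groups overlapped, with a difference of 0.06.

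Of 12 other regulators 7 had higher means, with a median of 0.01, which was -0.02 with cyclic loess and -0.01 with repeated quantile normalization. C4BPB, the beta chain of the C4b-binding protein, had 0.25 with an SE of 0.09 (adjusted p = 0.447 in limma's fit). VTN, the vitronectin gene, had 0.20 and CSMD1, a membrane inhibitor of complement, 0.18. CD109 had -0.12, CPN1, of the carboxypeptidase that inactivates anaphylatoxins, -0.10 and THBD, thrombomodulin, -0.05. The groups did not overlap for C4BPB and CSMD1, 16.7% of the 12, against 15.4% of all genes.

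**Figure D4:**
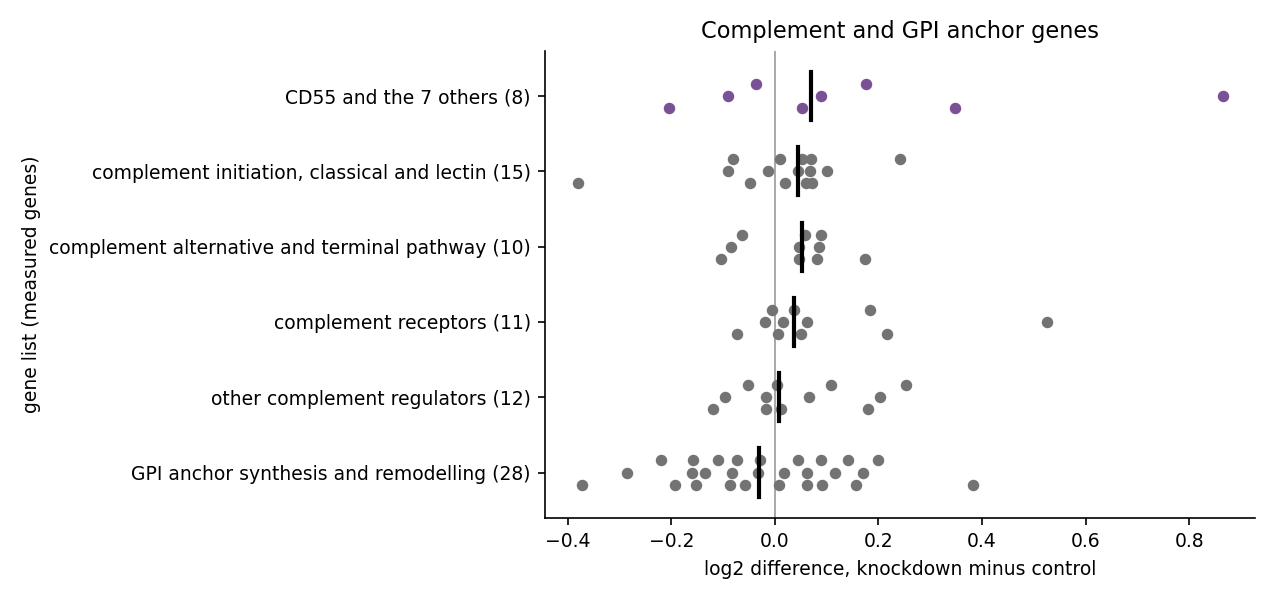
Each dot is 1 measured gene at its log2 difference, knockdown minus control (x axis), by gene list with the number measured (y axis), and the black bar is the list's median. CD55 at 0.86 stands at the right edge, the other dots lie between -0.38 and 0.53, and every list's median lies between -0.03 and 0.07.

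CD55 and CD59 reach the surface through the GPI anchor pathway, and 0 of its 28 measured genes passed the threshold. Higher means were found for 13 and lower ones for 15, with a median of -0.03, and the groups did not overlap in 3 on each side, against 15.4% of all genes. PIGT, a subunit of the transamidase that attaches the anchor, was the 1 gene of 28 with an unadjusted p under 0.05 in limma's fit, against 9.39% of all genes. It had 8.91, 8.97 and 8.82 in the controls and 9.18, 9.03 and 9.09 in the knockdown clones, a difference of 0.20 with an SE of 0.08. PIGK, the catalytic subunit of the same enzyme, had -0.19, and PIGU, another subunit, -0.16. PGAP2, which remodels the anchor's lipid, had 0.38, with overlapping groups. DPM2 and DPM1, both of the enzyme that makes the mannose donor, had 0.17 and -0.14.

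CD55 lies in the cluster of complement regulators on chromosome 1, and the 10 measured genes on each side of it, were taken in the order of the RefSeq table. Of these 20 genes 0 passed the threshold, 12 had higher and 8 lower means, and the median was 0.03. The groups did not overlap in 4, against 15.4% of all genes. These were PIGR, C4BPB and LAMB3 on the higher side and C1orf116 on the lower.

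The nearest measured gene on one side of CD55 is C4BPA, the alpha chain of the C4b-binding protein, with a difference of 0.01. Its neighbour C4BPB had 3.84, 3.69 and 3.87 in the controls and 4.13, 3.94 and 4.08 in the knockdown clones, all under the lower quartile. On the other side comes CR2, with 3.76, 4.19 and 3.44 in the controls and 3.26, 4.76 and 4.95 in knockdown clones 1, 2 and 3, and then CD46. CR2 was highest in knockdown clones 2 and 3 and lowest of all 6 in clone 1, the clone with the most CD55. Its difference of 0.53 had an SE of 0.43.

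PIGR, the receptor that carries IgA and IgM across epithelia, had 4.39, 4.22 and 4.11 in the controls and 4.45, 4.94 and 5.31 in knockdown clones 1, 2 and 3. Its difference was 0.66, with clone 1 only just above the controls, and with array weights it passed the threshold, as did 1.95% of all genes. LAMB3, a laminin chain of the basement membrane, had 4.55, 4.80 and 4.75 in the controls and 5.23, 4.94 and 5.13 in the knockdown clones, a difference of 0.40. As for CD55, knockdown clone 1 was the highest and clone 2 the lowest of the knockdown clones.

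**Figure D5:**
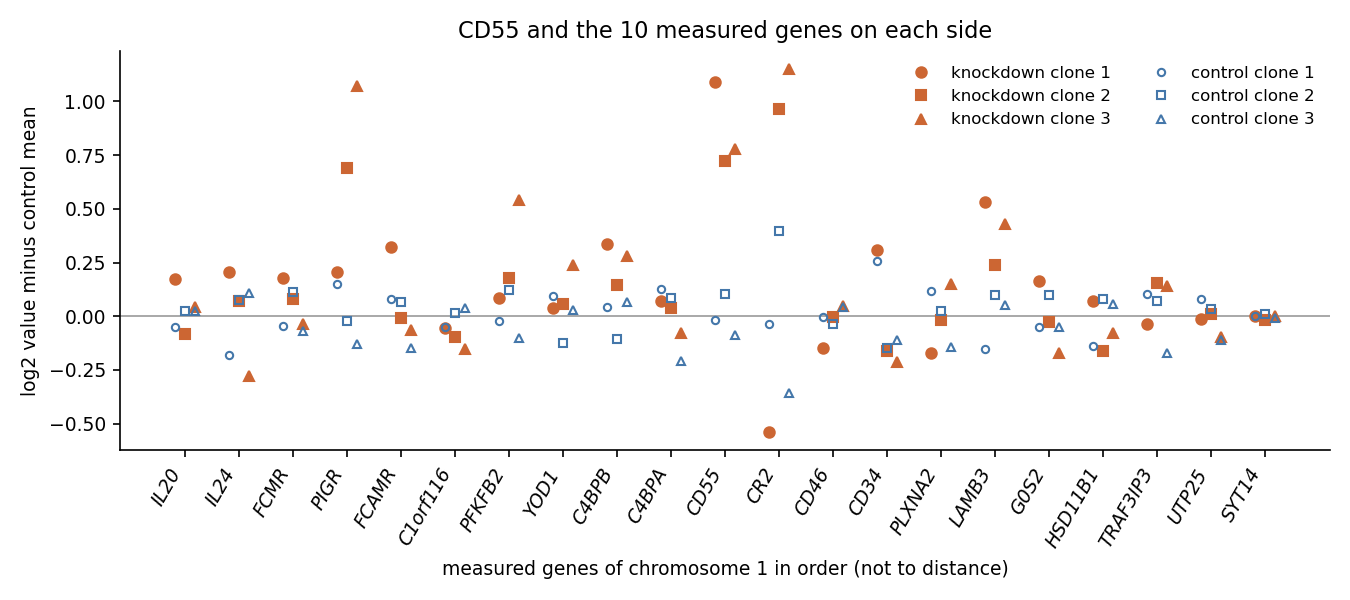
The 20 measured neighbours of CD55 are in chromosome order on the x axis (order only, not distance), with the log2 value of each clone minus the control mean on the y axis, filled symbols for knockdown and open symbols for control clones. CD55 has all 3 knockdown clones at 0.72 or more, PIGR and CR2 have clones 2 and 3 high and clone 1 lower, and most other genes have knockdown and control symbols mixed around 0.

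The genes whose values followed those of CD55 most closely over the 6 arrays were CYP1A2, SLC6A20, PRSS59P, NUMBL and WIPF1, with Pearson correlations of 0.99, 0.99, 0.99, 0.99 and 0.98. Their differences, in the same order, were 0.24, 0.44, 0.32, 0.25 and 0.40, against 0.86 for CD55. PRSS59P lay under the lower quartile of every array. SFMBT1 and PIP4K2A were the most opposite, with -0.99 each. These are descriptions over 6 arrays that share the same 2 groups, and 54 genes had a correlation above 0.95 and 62 one below -0.95. WIPF1 shows the pattern, with 4.57, 4.69 and 4.58 in the controls and 5.18, 4.90 and 4.95 in the knockdown clones. Of the other 7 complement genes CFHR2 had the highest correlation with CD55, 0.59, and CFI the lowest, -0.68.

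The arrays had medians from 6.31 to 6.33 and lower quartiles from 4.68 to 4.81. All 4 measured markers of LNCaP, KLK3, KLK2, HOXB13 and STEAP2, lay above the upper quartile on all 6 arrays. The list means of leukocyte markers (5 genes) lay between 3.99 and 4.07 in the controls and between 3.95 and 4.19 in the knockdown clones, those of 3 basal epithelial markers between 4.26 and 4.31 against 4.38 and 4.48, and those of 4 fibroblast markers between 5.57 and 5.64 against 5.62 and 5.77. The 3 endothelial markers were under the lower quartile on every array, with list means from 3.93 to 4.08 and from 3.87 to 4.13. The 4 hepatocyte markers, of the cell type that makes most plasma complement, had list means from 5.59 to 6.62 in the controls and from 6.15 to 7.24 in the knockdown clones. Within that list ALB had 5.01, 7.46 and 5.67 in the controls and 8.73, 6.63 and 7.72 in the knockdown clones, highest in knockdown clone 1 as CD55 was, while control clone 2 lay above knockdown clone 2. TTR overlapped too. The difference was 1.64 (SE 0.70) for ALB, 0.55 (SE 0.54) for TTR, 0.11 for APOA1 and 0.05 for APOA2. The part of the cells' hepatocyte-type transcripts in the values of the complement genes was not tested.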

How the data were processed

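The deposited table holds log2 expression values that, per the submitters' processing notes, the authors made by RMA with the packages oligo and limma. Their versions are not given in the sources read, and the log2 scale was read from the values. Values were used as deposited. Of 19712 features 17334 carry 1 gene symbol, 1521 several and 857 none, and the brightest feature per gene gave 16704 genes, of which 16695 matched a RefSeq gene of GRCh38.p14. The comparison was a limma (3.58.1, R 4.3.3) fit with lmFit and eBayes, two-sided, Benjamini-Hochberg adjusted over all genes, with no covariates. On simulated data the fit recovered 89.2% of 2-fold changes. Those data had independent noise without clone or array effects, so they cannot show how well changes are recovered on these arrays. Differences are knockdown minus control. Other tables used Python 3.11.15.

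The genes, lists and rules were chosen with earlier results of these data known. All 8 genes are named. Of each list the 3 genes with the smallest p per direction are named, of the neighbours the 3 with the largest difference and all of the complement lists, and the 5 genes most and 2 least correlated with CD55.

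Alternatives were array weights, trend and robust eBayes, cyclic loess, repeated quantile normalization, median centring, a filter on the dimmest 30% of genes, a replicate block, averaging the features of a gene and leaving out each array.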

Additional observations from a re-analysis of the deposited data

How the results depend on the processing

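CD55 kept its direction under all alternatives, with differences from 0.74 to 0.93 (0.75 to 0.93 with 1 array left out) and adjusted p in limma from 0.0171 to 0.458. Every knockdown clone lay above every control for CD55, on which the set was selected. Array weights, the replicate block or leaving out an array therefore could not reverse its direction, and the kept direction is no support. The number of the 8 genes past the threshold was 0 with all arrays, 1 (CD55) with array weights, and from 0 to 1 with 1 array left out, where CD55 passed without knockdown clone 1. With array weights 1 neighbour of CD55, PIGR, passed. No gene of the complement or GPI anchor lists passed under any of these alternatives. Over all genes the count past the threshold was 0, and it was 325 with array weights, 70 without knockdown clone 1, 7 without control clone 1 and 1 with repeated quantile normalization or cyclic loess. Groups did not overlap in 2 of the 8 genes, against 15.4% of all genes with all 6 arrays. They did not overlap in 1 of the 4 left when the dimmest 30% were left out (CFI, CFHR2, SERPING1 and C3 were not among the genes kept). With 1 array left out the count was 2 to 3. The share of all genes was not computed for these settings, and fewer arrays separate more easily, so these counts cannot be read against 15.4%. MBD2 lay between -1.44 and -1.19. With the whole window of 300 bases CD55 had 19 CpGs and CFI 2. The median over all windows was not computed for 300 bases, so the place of CD55 near the median holds for the 250 bases before the start. Deviations of same-numbered clones had correlations of -0.03, -0.19 and 0.17 across genes, which cannot show whether the numbers pair clones in some genes. With the replicate block the SE was lower for all of the 8 genes but CD55 and CD46. For CLU it was 0.21 with the block against 0.33 without it. With the replicate block the CD55 difference was 0.86 with an adjusted p of 0.319 in limma, 0 of the 8 genes passed, and no call changed. In the 4 dim genes the arrays' signal near background limits what can be read.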
